A study of Mus musculus with 12 samples.

Results

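The transcripts of 5 genes whose proteins make, or stand at the site of making, the 3' end of histone mRNA were followed in immature mouse oocytes. Lsm10, Lsm11, Slbp, Npat and Casp8ap2 were chosen by their function, with earlier results of these data known, from a table of 24255 genes measured by RNA-Seq in 12 libraries. All libraries were made from 20 germinal vesicle (GV) stage oocytes of C57BL/6 females aged 3 weeks, taken 46 h after 5 IU of PMSG. The 3 wild-type (WT) libraries are labelled with no mutant or floxed allele. The 3 MUT libraries came from mice homozygous for the D166G missense mutation of Dpagt1, which encodes the enzyme that opens N-glycan synthesis in the endoplasmic reticulum. The 3 GcKO libraries (Dpagt1F/F Gdf9CRE/+) lacked Dpagt1 by design in oocytes alone, because the Cre transgene is driven by the oocyte promoter of Gdf9. The 3 AmcKO libraries (Dpagt1F/F Amhr2CRE/+) came from mice in which Cre is expressed in granulosa cells, so their oocytes keep the gene. The comparisons ask how a Dpagt1 defect of the whole mouse, of the oocyte or of the granulosa cells goes with the transcripts of the oocyte.

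Most mRNAs end in a poly(A) tail, but the mRNAs of the replication-dependent histones end just behind a short stem-loop. SLBP, the product of Slbp, binds this stem-loop and stays with the mRNA through export, translation and decay, while the U7 small nuclear ribonucleoprotein (U7 snRNP) pairs with a site downstream and brings the enzyme that cuts between both. The ring of the U7 snRNP differs from the ring of the spliceosomal snRNPs in only a pair of its proteins, because LSM10 and LSM11 take the places of SmD1 and SmD2, encoded by Snrpd1 and Snrpd2. The product of Casp8ap2, also called FLASH, binds LSM11 and helps to recruit the cleavage complex, and NPAT switches on histone gene transcription in the histone locus body when cyclin E and CDK2 phosphorylate it. SLBP is known to be present in growing oocytes, which do not replicate DNA, and to be needed for their store of histones.

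The libraries of the groups differed as wholes before any gene was considered. FPKM values are fragments scaled by transcript length and by a measure of library size. Over all genes they added up to between 1167362 and 1226005 in WT, and MUT reached only 589617 to 611597. The sums of GcKO were 482314 to 684212, and those of AmcKO were 883256 to 1107925. Between 9359 and 9622 genes were above 0 in WT libraries against 11208 to 11467 in MUT, and 1 fragment of a low gene was worth 2.28 to 2.69 times as much in WT as in MUT replicate 2, so low genes were measured most coarsely in WT. All 12 oocyte markers reached 1 FPKM in every group, and the granulosa cell genes Amh, Amhr2, Foxl2 and Ihh were listed at 0 in every library. The 12 granulosa markers together reached 17.6 to 23.1 FPKM per WT library. Of these 12 genes, 8 were at 0 in all libraries of WT, 4 in MUT, 5 in GcKO and 6 in AmcKO. Inha, an inhibin subunit gene, was at 0 in every WT library and at 5.45, 1.13 and 5.44 FPKM in MUT, and Hsd17b1, a steroid enzyme gene, was at 0 in WT and at 2.06, 0.642 and 3.09 in MUT. In GcKO, Inha was at 1.08, 0.505 and 0.842 and Hsd17b1 at 0.957 in 1 library. Cyp19a1, another of the 12 granulosa markers, went the other way. It was at 17.1, 20.1 and 15.1 FPKM in WT and at 8.88, 9.49 and 13.4 in MUT. The part of these markers in the results on the members was not tested. The summed markers reached 14.7 to 27.2 for MUT, 14.3 to 28.9 for GcKO and 11.5 to 22.7 for AmcKO. Dpagt1 itself was listed at 0 in WT and AmcKO, at 0.878, 0.408 and 0.985 FPKM in MUT and at 0.366 in 1 GcKO library, so its level could not check the deletion. In the labels MUT and GcKO carry the numbers 1 to 3, and WT and AmcKO carry 4 to 6, so genotype and any collection batch marked by the numbers cannot be told apart where MUT or GcKO is compared with WT or AmcKO. Nothing in the labels says that libraries came from separate mice, so p-values measure the spread between libraries only.

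The 5 transcripts covered more than 3 orders of magnitude (the plot of levels by library). On the FPKM scale, which corrects for transcript length, the WT means were 3672 ± 509 for Slbp, 3641 ± 50.2 for Lsm10, 24.1 ± 3.37 for Casp8ap2, 0.966 ± 0.208 for Lsm11 and 0.923 ± 0.299 for Npat (SD, n = 3 each). Slbp and Lsm10 did not differ beyond their spread, and neither did Lsm11 and Npat, while Casp8ap2 stood between these pairs without overlap. In every library Lsm10 ranked between 55 and 74 among all genes by FPKM, and Slbp between 54 and 88. Casp8ap2 ranked between 1481 and 2318, Npat between 6869 and 8379, and Lsm11 between 7005 and 9094. The abundant pair has the short transcripts, 943 nt in 2 exons for Lsm10 and 1906 nt in 8 exons for Slbp, and the other transcripts are 6062 nt (Npat), 6453 nt (Lsm11) and 6799 nt (Casp8ap2) long in the GENCODE M21 annotation of GRCm38.

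**Figure D1:**
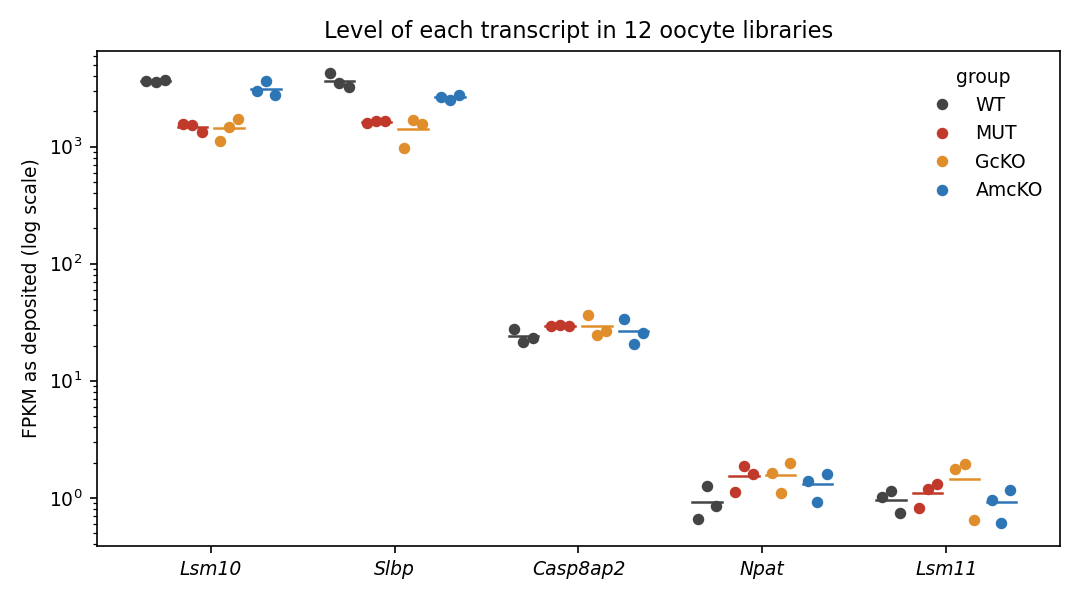
FPKM as deposited (log axis) of each transcript in the 3 libraries of WT, MUT, GcKO and AmcKO; points are libraries and bars are group means. Lsm10 and Slbp lie above 970 FPKM in all libraries and are lower in MUT and GcKO, while Lsm11 and Npat stay below 2 FPKM.

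Lsm10 (GRCm38 chr4:126096623-126098584, forward strand) encodes the ring protein that stands in for SmD1. It was at 3658, 3584 and 3679.7 FPKM in WT, at 1564.5, 1524 and 1327 in MUT, at 1111, 1468 and 1726 in GcKO and at 3007, 3611 and 2750.2 in AmcKO. Every MUT and GcKO library was below every WT and AmcKO library, and AmcKO overlapped WT. The difference from WT on the log2(FPKM + 1) scale was -1.31 (SE 0.17) in MUT, with an adjusted p of 0.000204 in a limma fit across 11233 genes, which is a 2.48-fold lower level. In GcKO it was -1.37 (SE 0.17; limma adjusted p = 0.000168), or 2.58-fold lower. Each library pools 20 oocytes, and FPKM is scaled by library size, so these values do not measure RNA per oocyte. Less Lsm10 RNA per oocyte, a different make-up of the oocytes collected and the scaling of the libraries cannot be told apart. In AmcKO the difference from WT was -0.23 (95% interval -0.60 to 0.13; limma adjusted p = 0.528), which did not pass the threshold of 0.05.

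Slbp (chr5:33634952-33652574, reverse strand) was at 4239, 3524 and 3254 FPKM in WT. It was at 1586, 1641 and 1660.2 in MUT, at 971, 1684 and 1577 in GcKO and at 2633, 2521 and 2757 in AmcKO. All libraries of the other groups were below the lowest WT library, those of AmcKO included, and MUT and GcKO were also below AmcKO. Against WT, Slbp was 2.24-fold lower in MUT (log2 difference -1.16, SE 0.19; limma adjusted p = 0.00087) and 2.66-fold lower in GcKO (-1.41, SE 0.19; limma adjusted p = 0.000247). In AmcKO the difference of -0.47 (95% interval -0.88 to -0.06) had an unadjusted p of 0.0264 and a limma adjusted p of 0.262, so it was not called. An unconfirmed transcript, Gm10459, is annotated on the opposite strand of Slbp, and the library type does not keep strand, so reads from the overlap could be counted in either gene.

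Most other abundant transcripts fell together with Lsm10 and Slbp. In MUT against WT, 2 of the 5 members were called lower and 0 higher, where 11.3% of all tested genes were called lower and 9.46% higher. In GcKO against WT the same counts stood beside 11.4% lower and 8.71% higher over all genes. Of the 138 genes with a mean of 1000 FPKM or more over the 12 libraries, the class that holds Lsm10 and Slbp, 127 (92%) were called lower in MUT and 128 (92.8%) in GcKO. The median log2 difference of this class was -1.19 in MUT and -1.22 in GcKO, so the values of Lsm10 and Slbp lay close to it. In AmcKO the class had a median of -0.37 with 0 genes called by limma and 60 at an unadjusted p under 0.05, between the values of Lsm10 and Slbp there (the plot of change by level). Libraries of MUT and WT did not overlap for 37.1% of tested genes, and this was 34.2% for GcKO and 17.8% for AmcKO.

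**Figure D2:**
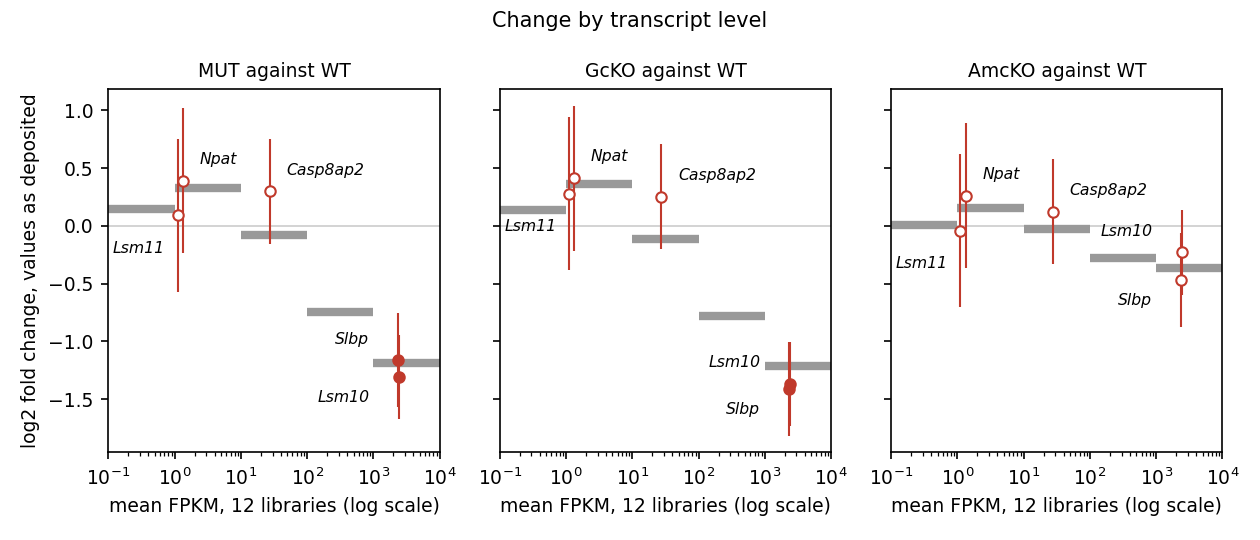
Log2 difference from WT, on values as deposited, against mean FPKM over 12 libraries (log axis). Grey bars are the medians of all tested genes in decades of mean FPKM, points are the 5 transcripts with 95% intervals, and filled points were called; Lsm10 and Slbp sit near the median of the highest class, -1.19 in MUT and -1.22 in GcKO.

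The stem-loop that SLBP binds is printed here because it marks the mRNAs whose making the 5 proteins serve. A stem of 6 bases opening with GG, a loop of 4 bases opening with TT and the bases that pair with the stem were searched in the transcripts of GENCODE M21. Of 67 replication-dependent histone genes in the table, 44 (65.7%) held such a match in an annotated basic transcript, against 163 of 55341 genes of the annotation (0.3%). A gene without a match may be annotated without its 3' end, and a match is a description and not a measured site. The 6 sequences found follow as DNA, 5' to 3', with the stem in capitals and the loop in lower case.
26 histone genes: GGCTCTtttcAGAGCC
7 histone genes: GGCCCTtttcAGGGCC
6 histone genes: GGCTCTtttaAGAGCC
2 histone genes: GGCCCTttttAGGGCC
2 histone genes: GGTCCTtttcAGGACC
1 histone gene: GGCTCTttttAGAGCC
In Hist1h2bg, which encodes an H2B histone, the most frequent form lies at chr13:23571843-23571858 on the forward strand, 155 nt before the annotated transcript end. In Hist1h2be it lies at chr13:23585531-23585546 on the reverse strand, 1861 nt before the end of the transcript, which is annotated to run on past the stem-loop.

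Lsm11 (chr11:45928269-45944935, reverse strand) encodes the other protein particular to the U7 ring, the partner of LSM10 and the one that FLASH binds. Its level was 1.01, 1.15 and 0.738 FPKM in WT, 0.815, 1.18 and 1.30 in MUT, 1.77, 1.94 and 0.645 in GcKO and 0.966, 0.607 and 1.17 in AmcKO. The groups overlapped, and the GcKO libraries held the highest pair of values and also one of the lowest. The log2 differences from WT were 0.09 in MUT (95% interval -0.57 to 0.75), 0.28 in GcKO (-0.38 to 0.94) and -0.04 in AmcKO (-0.71 to 0.62), none of them called by limma (adjusted p 0.871, 0.559 and 0.981). The intervals are wide at this level, and a difference within them was not detectable.

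The transcripts of the ring partners were far apart in level. Lsm10 exceeded Lsm11 by 3128 to 4985 times in WT, 1021 to 1920.3 times in MUT, 629 to 2675 times in GcKO and 2349.9 to 5949 times in AmcKO, on the FPKM scale within each library. The MUT and GcKO ratios were all below the WT ratios, with Lsm11 near 1 FPKM in each. Lsm10 and Slbp kept nearly equal levels, with a ratio of Lsm10 over Slbp from 0.799 to 1.43 over the 12 libraries and group medians of 1.02 in WT, 0.929 in MUT, 1.09 in GcKO and 1.14 in AmcKO.

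Casp8ap2 (chr4:32615451-32653265, forward strand) encodes FLASH. It was at 27.9, 21.4 and 23.0 FPKM in WT, 29.6, 30.1 and 29.2 in MUT, 36.3, 24.5 and 26.5 in GcKO and 33.7, 20.7 and 25.4 in AmcKO. The MUT libraries were all above the WT libraries by a small margin, and the other groups overlapped WT. The log2 differences of 0.30 in MUT (95% interval -0.16 to 0.75), 0.25 in GcKO (-0.20 to 0.71) and 0.12 in AmcKO (-0.33 to 0.58) were not called by limma (adjusted p 0.345, 0.432 and 0.822). In the class of 10 to 100 FPKM that holds Casp8ap2, the median over 2539 genes was -0.08 in MUT and -0.11 in GcKO.

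Npat (chr9:53537047-53574342, forward strand) encodes the activator of histone gene transcription. Its level was 0.662, 1.25 and 0.858 FPKM in WT, 1.12, 1.87 and 1.59 in MUT, 1.63, 1.10 and 1.97 in GcKO and 1.40, 0.926 and 1.59 in AmcKO. The highest WT library overlapped each other group. The log2 differences from WT were 0.39 in MUT (95% interval -0.24 to 1.02), 0.41 in GcKO (-0.22 to 1.04) and 0.26 in AmcKO (-0.37 to 0.89), with limma adjusted p of 0.369, 0.346 and 0.687, so none was called. The class of 1 to 10 FPKM, which holds Npat and Lsm11, had medians of 0.33 in MUT and 0.36 in GcKO. The annotated start of Npat lies 307 nt from that of Atm, the DNA damage kinase gene read in the opposite direction, and 9.21 Mb from the start of Dpagt1 on the same chromosome. Atm stayed at or below 0.710 FPKM in every library and was not tested.

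With AmcKO against WT, 0 of the 5 members were called by limma, where 0.214% of all genes were called in either direction; unadjusted p-values under 0.05 were found for 1754 genes, Slbp among them. Between GcKO and MUT, 0 members were called with 0.205% of all genes called, and 741 genes had an unadjusted p under 0.05, none of them a member. The intervals of that difference ran from -0.42 to 0.31 for Lsm10, from -0.65 to 0.16 for Slbp and from -0.50 to 0.41 for Casp8ap2, on the log2 scale. GcKO, with the defect of the oocyte, and MUT, with that of the whole mouse, were also compared directly with AmcKO. Against AmcKO, Lsm10 was lower by 1.14 log2 units in GcKO and by 1.08 in MUT (limma adjusted p = 0.00211 for each). Slbp was lower by 0.94 in GcKO (limma adjusted p = 0.0107) and by 0.69 in MUT (limma adjusted p = 0.0427). In each of these comparisons 2 of the 5 members were thus called lower, where 4.79% of all genes were called lower in GcKO and 5.07% in MUT. In the class of 1000 FPKM or more, 95 of the 138 genes (68.8%) were called lower in GcKO and 98 (71%) in MUT, with medians of -0.86 and -0.79, so both members stood among many genes of their level. The Slbp call in GcKO against AmcKO was lost without AmcKO replicate 4 (limma adjusted p = 0.0594). In MUT against AmcKO it was lost without any 1 of the 6 libraries, at limma adjusted p from 0.107 to 0.141. Slbp lost the call in both comparisons with equal FPKM sums, at -0.20 in GcKO (limma adjusted p = 0.272) and 0.01 in MUT (limma adjusted p = 0.998). Casp8ap2 gained a call there, at 0.85 in GcKO and 0.86 in MUT (limma adjusted p = 0.0368 and 0.0357), where 21.9% and 21.3% of all genes were called higher, and 1.14% and 1.47% lower.

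How the libraries are set to a common scale changed what was called, as the plot of 3 scalings shows. With every library scaled to the same FPKM sum, the median of all genes moved from 0.12 to 0.71 in MUT and from 0.12 to 0.74 in GcKO. On that scale 41.3% of all genes were called higher and 2.23% lower in MUT, and 42.4% higher and 2.14% lower in GcKO. Lsm10 then remained lower, by 0.31 in MUT and 0.33 in GcKO (limma adjusted p = 0.00461 and 0.00341), and Slbp was lower by 0.37 in GcKO (limma adjusted p = 0.0329) and by 0.17 in MUT, where the call was lost (limma adjusted p = 0.321). On this scale Casp8ap2 was higher by 1.26 in MUT and 1.25 in GcKO (limma adjusted p = 0.00222 and 0.00225) and Npat by 0.92 and 0.97 (limma adjusted p = 0.0324 and 0.0246). Relative to the median of all genes on the same scale, Lsm10 stood at -1.03 in MUT, Slbp at -0.88, Casp8ap2 at 0.54 and Npat at 0.20. With the distributions of all libraries made equal by quantile normalization, 0 members were called by limma in MUT or GcKO against WT, with 0 at an unadjusted p under 0.05, and the log2 differences in MUT were -0.10 for Lsm10 and 0.09 for Slbp.

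**Figure D3:**
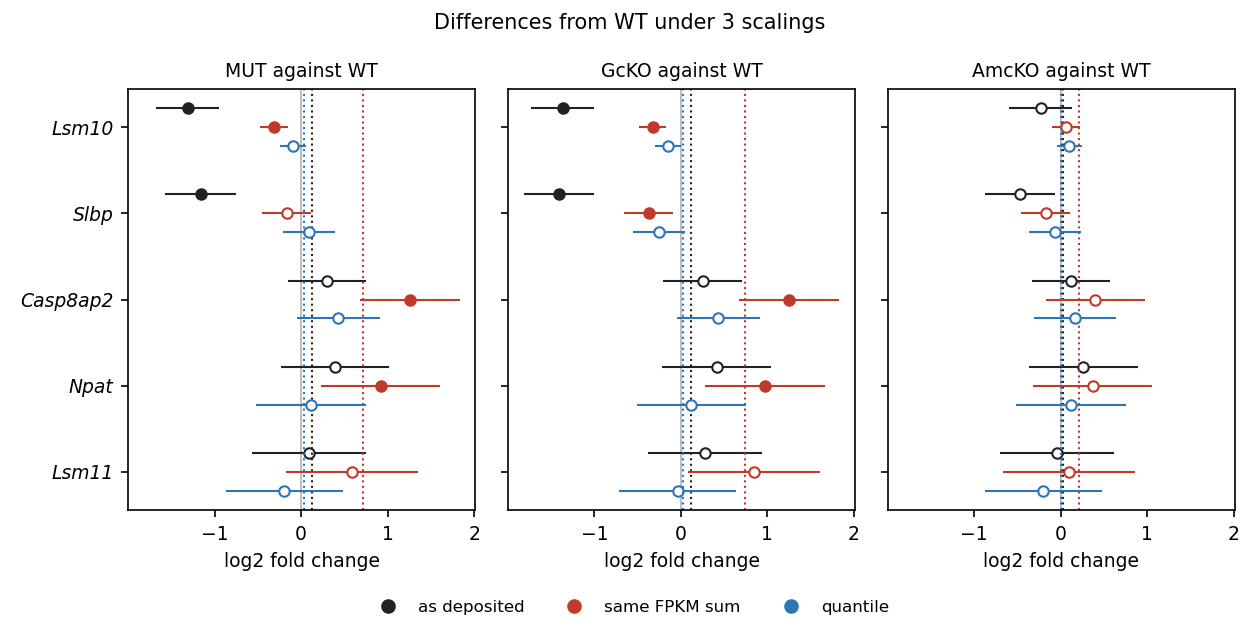
Log2 difference of each transcript from WT with its 95% interval, for values as deposited, libraries scaled to the same FPKM sum, and quantile normalized values; filled points were called and dotted lines mark the median of all tested genes under each scaling. In MUT the value of Lsm10 goes from -1.31 to -0.31 and -0.10 over these scalings, and that of Casp8ap2 from 0.30 to 1.26 and 0.43.

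The share of a transcript in the summed FPKM shows the equal-sum scale library by library. Lsm10 made up 0.298%, 0.307% and 0.300% of the summed FPKM in WT, 0.256%, 0.249% and 0.225% in MUT, 0.230%, 0.240% and 0.252% in GcKO and 0.311%, 0.326% and 0.311% in AmcKO. By this share MUT and GcKO were again below WT without overlap, by less than on the deposited scale, and AmcKO was above WT. Shares below WT without overlap were found for 3.53% of all tested genes in MUT and 2.85% in GcKO, and shares above WT for 49.6% and 48.2%. In AmcKO these were 3.45% below and 16.2% above. The share of Slbp ran from 0.265% to 0.346% over the WT libraries and from 0.260% to 0.282% over those of MUT. It ran from 0.201% to 0.275% for GcKO and from 0.228% to 0.312% for AmcKO, so each group overlapped WT. Casp8ap2 made up 0.00183% to 0.00227% in WT and more in every MUT library, 0.00485% to 0.00496%. Its share in GcKO was 0.00387% to 0.00753%, also above WT, and in AmcKO it was 0.00187% to 0.00348%.

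The U7 ring proteins were set against the spliceosomal proteins whose places they take, within each library. Snrpd1 was at 683, 648 and 707 FPKM in WT, 549.96, 435 and 439 in MUT, 419, 412 and 527 in GcKO and 505, 662 and 482 in AmcKO. The log2 ratio of Lsm10 to Snrpd1, with 1 added to each FPKM, was 2.42 ± 0.04 in WT, 1.64 ± 0.16 in MUT, 1.65 ± 0.22 in GcKO and 2.51 ± 0.06 in AmcKO (SD, n = 3). The MUT and GcKO ratios did not overlap WT or AmcKO, with differences from WT of -0.79 and -0.77. The exact two-sided permutation test gave p = 0.1 for each, the smallest that 3 libraries against 3 allow, and 0.15 after adjustment over 6 comparisons. In AmcKO the difference was 0.09 (exact permutation p = 0.2, adjusted 0.24). Snrpd1 lies in the class of 100 to 1000 FPKM, with a median change of -0.75 in MUT, and Lsm10 in the class with a median of -1.19.

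**Figure D4:**
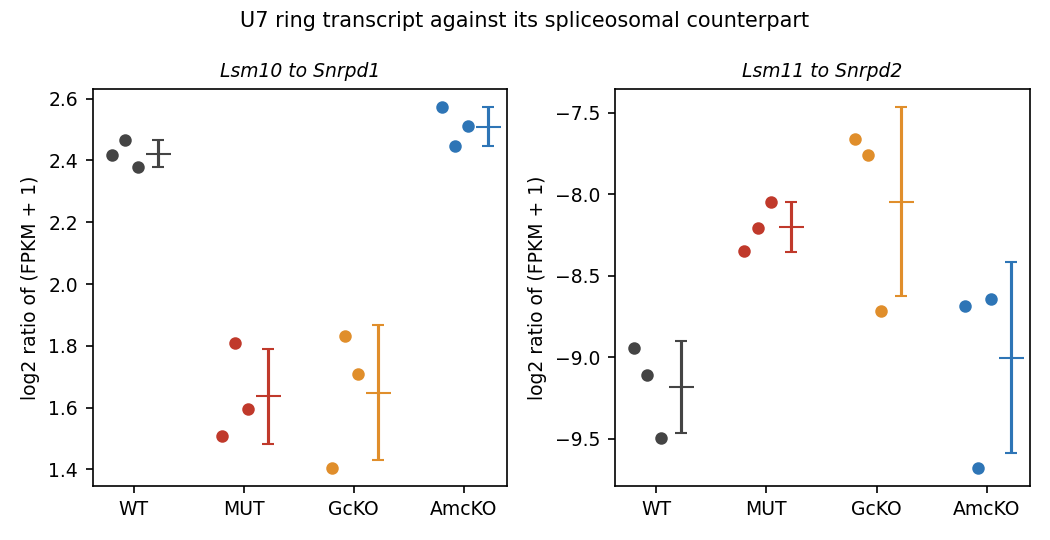
Log2 ratio of (FPKM + 1) of Lsm10 to Snrpd1 and of Lsm11 to Snrpd2 in each library; points are libraries and crosses with bars are means ± SD. The Lsm10 to Snrpd1 ratio is 2.42 in WT and 2.51 in AmcKO against 1.64 in MUT and 1.65 in GcKO, and the Lsm11 to Snrpd2 ratio is higher in MUT than in WT.

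For Lsm11 and Snrpd2 the ratio went the other way. Snrpd2 was at 989, 1186 and 1253 FPKM in WT and at 591, 643 and 607 in MUT, and it was called lower in MUT and GcKO on values as deposited, though not with equal FPKM sums, where it was at 0.11 and 0.18 beside medians of 0.71 and 0.74 over all genes. The log2 ratio of Lsm11 to Snrpd2 was -9.18 ± 0.28 in WT, -8.20 ± 0.15 in MUT, -8.05 ± 0.58 in GcKO and -9.00 ± 0.58 in AmcKO. The differences from WT were 0.98 in MUT and 1.14 in GcKO (exact permutation p = 0.1 each, adjusted 0.15) and 0.18 in AmcKO (exact permutation p = 0.6). Lsm11 is near the added 1 FPKM, which dampens its part in this ratio. Snrpd2 sits among the genes of 100 to 1000 FPKM, whose median was -0.75 for MUT and -0.78 for GcKO. Lsm11 sits among those of 1 to 10 FPKM, with a median of 0.33 for MUT and 0.36 for GcKO. The medians of these classes thus differed in the same direction as the ratio. Whether any part of the shift is particular to the U7 ring was not tested.

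Other genes of the pathway were taken from lists by function, with the 5 members left out. Their counts are for values as deposited, and those with equal FPKM sums are to be read against the 41.3% and 42.4% of all genes called higher on that scale. Of 12 tested genes of the U7 snRNP and cleavage complex, 1 was called lower and 0 higher in MUT, with a median of 0.06 beside 0.12 over all genes, and 2 were called lower and 1 higher in GcKO (median 0.33). Equal FPKM sums gave 0 lower and 3 higher in MUT, and 0 and 5 in GcKO. The gene called in MUT was Snrpe, a protein of every Sm ring, at -1.08. The gene called higher in GcKO was Zfp473, whose product binds LSM11, at 5.62, 5.98 and 6.03 FPKM against 4.25, 1.07 and 1.83 in WT (log2 difference 1.13; limma adjusted p = 0.0244). Cpsf3, the endonuclease, was at -0.51 in both MUT and GcKO (limma adjusted p = 0.335 and 0.333), its partner Cpsf2 was at 0.22 and 0.68 (limma adjusted p = 0.605 and 0.0942), and the scaffold gene Sympk, at or below 0.392 FPKM, was not tested.

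Of 18 other Sm and Lsm genes, most of which encode small ring proteins, 7 were called lower and 0 higher in MUT, and 8 and 0 in GcKO. Their medians were -0.48 and -0.65, and 11.3% and 11.4% of all tested genes were called lower. Except Lsm6 in both and Lsm1 in GcKO, the genes called lower were above 100 FPKM in every library. In the class of 100 to 1000 FPKM, 63.7% of genes were called lower in MUT and 66.9% in GcKO. Lsm5 was at -1.35 and Lsm6 at -1.22 in MUT. On libraries of equal FPKM sum 0 of these 18 were called lower and 7 higher in MUT (limma, adjusted p under 0.05), and their median of 0.49 was below the 0.71 of all genes, as it was on values as deposited. Lsm12, Lsm14a and Lsm14b, longer proteins outside the rings, were among these 7. Sm genes may have processed copies elsewhere in the genome, and reads could then be split among them.

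Of the genes of the histone locus body and of histone transcription, 9 were tested, with 0 lower and 2 higher in MUT and in GcKO, and 0 and 5 in each with equal FPKM sums. The genes called higher as deposited were E2f1, a cell cycle transcription factor, at 1.41 and 1.51, and Gon4l, at 1.24 and 1.01. E2f1 was near the floor in WT, at 0.644, 0 and 1.25 FPKM, against 2.08, 3.02 and 4.65 in MUT. With quantile normalization E2f1 was called in neither group and Gon4l in MUT only. Hinfp, the activator of H4 genes, was at 0.86 in MUT (limma adjusted p = 0.124), and Coil, the gene of the Cajal body protein coilin, was at 0.33 (limma adjusted p = 0.567). Of 7 tested partners and regulators of SLBP, Fem1b was called higher in MUT and GcKO, at 1.01 and 1.16, and with equal FPKM sums 6 were called higher in MUT and 5 in GcKO. Mif4gd, the translation partner of SLBP, was at 0.67 in MUT (limma adjusted p = 0.174) and 0.34 in GcKO (limma adjusted p = 0.499).

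Of 9 tested genes of histone mRNA decay, 1 was called lower in MUT, and 2 were called lower and 1 higher in GcKO. The counts with equal FPKM sums were 0 lower and 4 higher in MUT, and 0 and 5 in GcKO. Upf1, a helicase of mRNA decay, was called lower in both as deposited, at -0.75 and -0.73, and in neither with equal sums (0.22 and 0.28) or quantile normalization (-0.57 and -0.51). The gene called higher was Eri1, the exonuclease that binds the stem-loop together with SLBP. It was at 11.9, 15.6 and 12.3 FPKM in GcKO, above 3.91, 2.58 and 0.950 in WT, 5.10, 4.56 and 7.03 in MUT and 1.45, 1.17 and 4.86 in AmcKO. Its log2 difference from WT was 2.12 in GcKO (SE 0.40; limma adjusted p = 0.00242) and 1.00 in MUT (limma adjusted p = 0.0982). Of 17 tested genes of the polyadenylation machinery, 1 was called lower and 2 higher in MUT, namely Wdr33 at -0.83, Pabpn1 at 1.63 and Papola at 0.82, and Wdr33 was the 1 called in GcKO, at -0.96. With equal FPKM sums 0 were lower and 8 higher in MUT, and 0 and 11 in GcKO, and with quantile normalization 0 were called by limma in either. Pabpn1 was near the floor in WT, at 0, 1.16 and 0.992 FPKM, against 3.78, 2.63 and 6.35 in MUT.

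The replication-dependent histone genes, whose class of transcripts these factors process, were taken by symbol and counted next. Of 58 tested replication-dependent histone genes, 6 were called lower and 8 higher in MUT, and 8 lower and 2 higher in GcKO, with medians of 0.07 and -0.19 beside 0.12 over all genes. Over all tested genes 11.3% were called lower and 9.46% higher in MUT, and 11.4% and 8.71% in GcKO. With equal FPKM sums 2 of the 58 were lower and 13 higher in MUT, and 2 lower and 8 higher in GcKO, so the balance in GcKO turned, with medians of 0.56 and 0.26 beside 0.71 and 0.74 over all genes. Of the histone genes called higher in MUT as deposited, Hist1h1e, Hist1h3h, Hist1h4k, Hist2h2bb and Hist3h2ba were at 0 in every WT library. The others, Hist1h4a, Hist1h4d and Hist1h4j, were at 0 in at least 1 WT library. The genes called higher in GcKO, Hist1h3h and Hist2h2bb, are among those at 0 in WT. The called genes with the highest mean level were Hist1h2bc, Hist1h2bg, Hist1h2aa and Hist1h2be, which encode H2B and H2A histones, and they were called lower in both groups. They were picked by level among called genes, and most called genes of such levels were lower. In the class of 100 to 1000 FPKM, which holds all but Hist1h2be, 63.7% were called lower and 3.09% higher in MUT (median -0.75). In GcKO these were 66.9% and 2.02% (median -0.78). In the class of 10 to 100 FPKM, which holds Hist1h2be, 20.2% were lower and 14% higher in MUT, and 20.4% and 12.4% in GcKO. Hist1h2bg and Hist1h2be held the stem-loop match in an annotated transcript, and Hist1h2bc and Hist1h2aa did not. Hist1h2bg was at 479, 575 and 600.2 FPKM in WT, 222, 208 and 119 in MUT, 138, 176 and 172 in GcKO and 318, 371 and 327 in AmcKO. Its log2 difference was -1.63 in MUT and -1.76 in GcKO (SE 0.21; limma adjusted p = 0.000203 and 0.000153), and in AmcKO it was -0.70 (limma adjusted p = 0.161). Hist1h2bc was at -1.21 and -1.16, Hist1h2be at -1.34 and -1.84, and Hist1h2aa at -1.52 and -1.14 in MUT and GcKO. On the equal-sum scale Hist1h2bg was still called lower in both, Hist1h2be in GcKO, and Hist1h2bc and Hist1h2aa in neither. Histone genes are near-identical copies, so the share of each copy is uncertain. The labels name both random primers and Smart-seq2, a method that usually primes from poly(A) tails, so it is not known how far histone mRNAs without a tail were captured.

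The replacement histones, most of whose mRNAs carry poly(A) tails, moved in both directions. Of 10 tested genes, 4 were called lower and 3 higher in MUT, and 6 lower and 1 higher in GcKO, against 1 lower and 3 higher in each with equal FPKM sums. H3f3b, which encodes histone H3.3, was near Slbp in level, at 4796, 4248 and 4487 FPKM in WT and 1898, 1834 and 1666 in MUT (log2 difference -1.33 in MUT and -1.60 in GcKO). The ratio of Slbp to H3f3b within a library ran from 0.725 to 0.884 for WT and from 0.836 to 0.997 for MUT. H3f3a was at -1.08 in MUT. H1f0, a linker histone, and H2afy, which encodes macroH2A, were higher in MUT, by 1.00 and 1.63. H2afy was low, at 3.71, 0 and 2.69 FPKM in WT and 5.98, 7.93 and 7.18 in MUT. With quantile normalization H1f0 was still called higher in MUT and H2afy was not.

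The genes most like each member were found by the root mean square difference of their centred log2(FPKM + 1) values over the 12 libraries, among genes with a mean of at least 5 FPKM. For Lsm10 they were Ninj2, Glrx and Gm10094, at 0.09 each, where the median over 4758 genes was 0.69. Glrx, the glutaredoxin gene, was at 4234, 3989 and 3781 FPKM in WT and at 1544, 1613 and 1605 in MUT, and Ninj2 fell from a mean of 2653 to 1142. For Slbp they were Cmya5, Snrpa1 and Gm6367, at 0.10, 0.12 and 0.12. Snrpa1, which encodes a protein of the U2 snRNP, was at 163, 125 and 132 FPKM in WT and 56.3, 61.6 and 61.8 in MUT. The closest genes were Stradb, Pld1 and Dnmt1 for Casp8ap2 (0.15, 0.15 and 0.16), and Cyp4f39, Ppp2ca and Mpzl1 for Lsm11 (0.17, 0.17 and 0.17). The added 1 FPKM dampens the profile of Lsm11. Lsm10 and Slbp were 0.22 apart from each other, and each was 0.74 or more from the other members.

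Lsm10 and Slbp were called lower together, as were 92% of the genes of 1000 FPKM or more in MUT and 92.8% in GcKO. Their moving together is thus not particular to the pair. Their promoters are described next. All 5 members had a window of 250 bases before and 50 bases from the start site in the RefSeq table of GRCm38.p6, and it was searched on both strands for the CCAAT box by these letters, for the GC box as GGGCGG, for the TATA box as TATAAA, for an E2F core as TCCCGC and for the E-box as CACGTG. Over 32851 windows, 37.4%, 35.7%, 13.6%, 20% and 7.15% held these motifs. The Lsm10 window held 1 CCAAT box and 1 GC box and no E2F core. The Slbp window held 3 CCAAT boxes, 1 GC box and 3 E2F cores. The windows of Npat, Casp8ap2 and Lsm11 held 3, 2 and 1 E2F cores, and no member held a TATA box or an E-box. Npat held 2 CCAAT boxes and 1 GC box, Casp8ap2 held 2 and 3, and Lsm11 held 0 and 2. An E2F core next to CC or CAAT shares bases with a GC box or a CCAAT box and is counted for each. The windows follow in lower case with matches in capitals, Lsm10 from chr4:126096403-126096702 on the forward strand and Slbp from chr5:33652525-33652824 on the reverse strand.
Lsm10: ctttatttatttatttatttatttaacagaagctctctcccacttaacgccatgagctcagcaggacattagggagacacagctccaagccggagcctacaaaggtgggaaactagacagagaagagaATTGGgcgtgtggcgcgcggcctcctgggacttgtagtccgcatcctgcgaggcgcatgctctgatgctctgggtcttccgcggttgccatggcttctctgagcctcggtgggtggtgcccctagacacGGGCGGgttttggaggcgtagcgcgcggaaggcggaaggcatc
Slbp: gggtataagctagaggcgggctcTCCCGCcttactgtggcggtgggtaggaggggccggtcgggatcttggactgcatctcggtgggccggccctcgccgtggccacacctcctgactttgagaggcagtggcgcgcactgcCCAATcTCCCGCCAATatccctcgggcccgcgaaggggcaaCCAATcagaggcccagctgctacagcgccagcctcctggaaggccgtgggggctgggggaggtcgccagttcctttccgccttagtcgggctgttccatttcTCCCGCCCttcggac
These matches are letters and not measured sites. The 2 promoters shared the CCAAT box and GC box, which are each common over all windows. Npat and Casp8ap2, which were not called lower, also held both, so this is not particular to Lsm10 and Slbp.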

How the data were processed

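Libraries were grouped by the genotype in the labels. Per the labels, the authors trimmed 150 nt read pairs of Smart-seq2 libraries and used TopHat2 2.0.13 for alignment to mm10. They deposited FPKM values from Cufflinks 2.2.1, 1 column per library, and the annotation is not given in the sources used here. The labels also name Cuffnorm and Cuffdiff, without versions, and the tool that set the scale of the libraries is not known here. FPKM holds no counts, so depth is unknown and no counting interval is given. The authors' deposited fold changes, p-values and q-values were not used. The members and gene lists were chosen with earlier results of these data known.

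Genes with at least 1 FPKM in 1 library (11233) were fitted as log2(FPKM + 1) with limma 3.58.1 (R 4.3.3), all 12 libraries in 1 model with a variance trend, Benjamini-Hochberg adjustment and calls at an adjusted p under 0.05. The script was tested on simulated data. Such fold changes understate those of low genes. Ratios were tested by exact permutation (scipy 1.17.1). Named besides the members were their fixed partners, the 3 most alike genes each (those of Npat are not reported here), up to 4 called genes of largest change in MUT per list, and the 4 called histones of highest level; Zfp473 and Eri1 are partners. Pseudocount, filter, scaling, trend, length correction, groups in the fit, thresholds, replicate block and left-out libraries were varied.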

Additional observations from a re-analysis of the deposited data

Results flagged for a closer look

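The change from WT differed for 2 members between GcKO or the whole-mouse mutant MUT and the granulosa cell knockout AmcKO, by the contrast of the groups in the limma fit. For Lsm10 the change was lower by 1.14 log2 units in GcKO than in AmcKO (a difference of -1.14) and by 1.08 in MUT (a difference of -1.08), with limma adjusted p of 0.00211 for each. For Slbp the difference was -0.94 for GcKO (limma adjusted p = 0.0107) and -0.69 for MUT (limma adjusted p = 0.0427). FPKM sums moved with these differences, at 482314 to 684212 in GcKO and 589617 to 611597 in MUT against 883256 to 1107925 in AmcKO, and their part in the result was not tested. With equal FPKM sums the Slbp call was lost in both, with differences of -0.20 for GcKO and 0.01 for MUT. Of all genes, 4.79% were called lower in GcKO than in AmcKO and 5.07% in MUT, and of the 138 genes with a mean of 1000 FPKM or more, 68.8% and 71% were, so the difference is not particular to these members. The library numbers 1 to 3 and 4 to 6 follow the groups here too, so a batch marked by them cannot be told apart from genotype.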

How the results depend on the processing

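The members' log2 differences, 30 in all, were recomputed under the alternatives, which gave 448 values. Of these, 395 kept their direction and their side of the threshold, 21 lost the call, 6 gained it and 26 changed sign. The calls of Lsm10 and Slbp in MUT and GcKO against WT stood under the other pseudocount, filters, median-of-ratios scaling, length correction, variance trend, fits of 2 groups and left-out libraries that were run. They did not stand under all scalings, and the cause was not tested. The median-of-ratios scaling left the values nearly as deposited, with Lsm10 in MUT at -1.32 after -1.31, so it is a weak check of the calls.

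With quantile normalization 0 members were called by limma in MUT and GcKO against WT or against AmcKO, and 1 member, Lsm10, had an unadjusted p under 0.05 in each comparison with AmcKO. Lsm10 was then at -0.10 in MUT, -0.15 in GcKO and 0.10 in AmcKO against WT, Slbp at 0.09 in MUT and -0.26 in GcKO, and Lsm11 at -0.20 in MUT and -0.04 in GcKO. Against AmcKO, Slbp was at 0.15 and Npat at -0.01 in MUT. Snrpd2 in GcKO was at 0.05 and H3f3a in MUT at 0.04. With equal FPKM sums 4 members were called in GcKO against WT, where 42.4% of all genes were called higher and 2.14% lower, and the median over all genes was 0.74 (0.71 in MUT). Slbp in MUT was at -0.17, Npat at 0.92 in MUT and 0.97 in GcKO, and Casp8ap2 at 1.26 and 1.25. In AmcKO, Lsm10 was at 0.07 and Lsm11 at 0.10, and Slbp in MUT against AmcKO was at 0.01. On that scale Snrpe (0.02), Lsm6 (0.02), Snrpd2 (0.18), Upf1 (0.28) and Wdr33 (0.06) were above 0 in GcKO, and Snrpd2 (0.11), Upf1 (0.22) and Wdr33 (0.15) in MUT, each still below the median of all genes. With the length correction, Lsm11 was at -0.21 in MUT and -0.08 in GcKO, Casp8ap2 at -0.11 in GcKO and -0.05 in AmcKO, Npat at -0.03 in GcKO against MUT and against AmcKO, and Casp8ap2 at -0.06 in GcKO against AmcKO, none of them called. Over all genes, 54.4% of calls were lower in MUT as deposited, 5.1% with equal sums and 48.9% with quantile normalization.

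In GcKO against AmcKO 1 member, Lsm10, was called with a fold change over 2, at an adjusted p under 0.01 or without the variance trend, and 0 when only these groups were fitted, a fit that called 0 of all 11233 genes, with 2013 at an unadjusted p under 0.05, Lsm10 and Slbp among them. In MUT against AmcKO 1 member, Lsm10, was called with a fold change over 2, at an adjusted p under 0.01, with a pseudocount of 0.1, without the filter or without the variance trend.

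With 1 library left out, 1 to 2 members were called in GcKO against AmcKO and 1 to 1 in MUT against AmcKO. Lsm11 in AmcKO against WT ranged from -0.14 to 0.08 and Casp8ap2 from -0.06 to 0.28. In GcKO against MUT, Lsm10 ranged from -0.20 to 0.12, Npat from -0.10 to 0.16 and Casp8ap2 from -0.21 to 0.06, and Casp8ap2 in GcKO against AmcKO from -0.04 to 0.31.

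The numbers that WT shares with AmcKO, and MUT with GcKO, went with no visible pairing of the libraries. The correlations of deviations between same-numbered libraries were -0.041 to 0.041, which cannot show that these libraries were handled apart. With the replicate block 0 members were called in AmcKO against WT, with Slbp at -0.47, and 0 in GcKO against MUT, with Lsm10 at -0.06, and over all genes calls fell from 24 and 23 to 0 and 0, with 1150 and 800 genes at an unadjusted p under 0.05. Low levels limit Lsm11 and Npat, and 3 libraries a group limit the ratio tests.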
